A study of Solanum lycopersicum with 3 samples.

Results

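Cel1, Cel3, EXP1 and EXPA3 are genes of the tomato (Solanum lycopersicum) fruit wall: Cel1 and Cel3 encode endo-1,4-beta-glucanases and EXP1 and EXPA3 encode expansins. They were chosen by symbol, and each was measured by 1 probe set, so the genes were followed with 4 of the 10038 non-control probe sets of the tomato GeneChip. Both the array's own annotation and the current RefSeq gene table gave these symbols. The NCBI gene IDs are 543995 (Cel1), 544032 (Cel3), 544035 (EXP1) and 543556 (EXPA3), and none of the probe sets has the name ending of a design that cross-hybridises.

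The series asked, by its title and design, how the extraction method affects which mRNAs are recovered from fruit pericarp, with mRNAs of secreted and endomembrane proteins in view. All RNA came from pericarp of the cultivar Ailsa Craig grown in a glasshouse, and fruit age and ripening stage were not given in the sources used here. There were 3 arrays, 1 for each preparation of 10 to 12 g of tissue. The first is the Ex2 pellet, the cell debris spun down at 10000 x g for 15 min in the Ex2 procedure and then extracted again with it. The second is Ex2, the supernatant of such a spin after homogenisation in 2 ml per g of a Tris buffer with sucrose, magnesium and potassium chloride, to which detergent and phenol were added only after the debris had been removed. The third is Ex1, in which tissue was taken up in 1 ml per g of a buffer that already held phenol and was shaken with phenol and chloroform at once. Whether the preparations shared fruit, or the pellet and Ex2 a homogenate, is not stated. With 1 array per group no difference below has a replicate check, and no test was made: the number of arrays limits the precision, and the spread between samples is unknown. In such bulk RNA, fewer cells of a type and less RNA per cell cannot be told apart.

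Endo-1,4-beta-glucanases cut beta-1,4-linked glucans, the backbone of cellulose and of xyloglucan, the hemicellulose that coats and ties cellulose microfibrils. Expansins loosen the same network without cutting it, by disturbing the contacts between microfibrils and the glycans bound to them. Both kinds of protein enter the secretory pathway, and in tomato fruit both are known from growth and from ripening. Cel1 is known as a secreted enzyme found in fruit and in abscission zones, while Cel3 is anchored in a membrane and known from the Golgi and the plasma membrane. EXP1 is the ripening expansin, induced by ethylene, whose suppression gives firmer fruit, and EXPA3 is known from green, growing and maturing fruit.

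All 4 genes gave their highest value on the Ex2 array, an intermediate one on the Ex2 pellet array and the lowest on the Ex1 array. Cel1 had a probe set intensity of 271 on the Ex2 pellet array, 805 on the Ex2 array and 76.2 on the Ex1 array. Cel3 read 569 on the Ex2 pellet array, 2913 on the Ex2 array and 386 on the Ex1 array. For EXP1 the intensities were 2796 for the Ex2 pellet, 6811 for Ex2 and 2321 for Ex1. EXPA3 gave 397 for the Ex2 pellet, 725 for Ex2 and 201 for Ex1. The pellet value thus lay close to Ex1 for Cel3 and EXP1 and farther from it for Cel1 and EXPA3. Intensities of different probe sets depend on their probes and are not set against each other. Of the 5671 probe sets that reached an intensity of 175, the median of all non-control values, on at least 1 array, 910 had the order Ex2, pellet, Ex1 from high to low. Among 502 named genes that did so, 105 had it, or 20.9%.

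**Figure D1:**
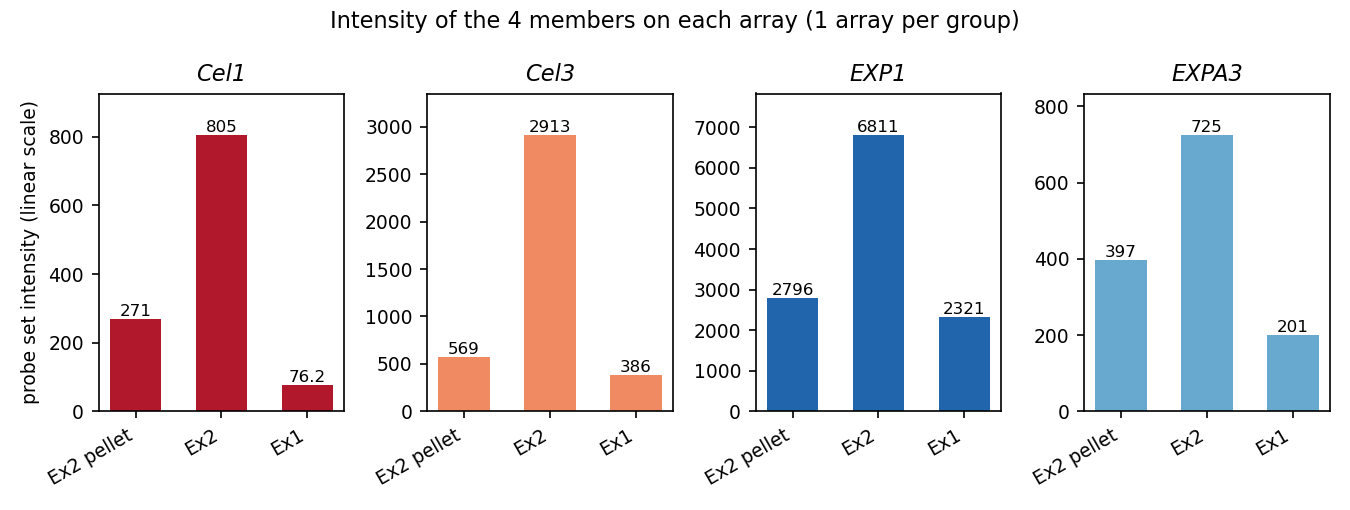
Probe set intensity (linear scale, from 0) of Cel1, Cel3, EXP1 and EXPA3 on the Ex2 pellet, Ex2 and Ex1 arrays, 1 bar per array and with its own axis for each gene. Each gene is highest on Ex2 and lowest on Ex1, and the pellet bar of Cel1 (271) stands well above its Ex1 bar (76.2), whereas that of EXP1 (2796) is close to Ex1 (2321).

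The place of a probe set within its own array gives a reading that no constant scaling of an array can move. Cel1 stood at percentile 59.0 of all non-control probe sets on the Ex2 pellet array, 79.1 on Ex2 and 35.8 on Ex1. Cel3 stood at percentile 73.1 on the pellet array, 94.9 on Ex2 and 65.7 on Ex1. EXPA3 was at percentile 66.5 on the pellet array, 77.2 on Ex2 and 52.3 on Ex1. EXP1 moved least by this measure, with percentiles of 93.8 on the pellet array, 99.0 on Ex2 and 92.5 on Ex1, and being near the top of each array it had little room to move. By percentile too, each gene kept the order Ex2, pellet, Ex1. The deposited arrays were close in their medians, so this was a weak check on the order of the intensities.

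Ex2 was first compared with Ex1, that is, the supernatant method with direct phenol extraction. All 4 genes were at least 2-fold higher in Ex2, where 17.3% of the 5568 probe sets compared were. A probe set was compared if the brighter of its values reached the intensity of 175. On the scale of log2(intensity + 1), the difference was 3.38 for Cel1 and 2.91 for Cel3, that is 10.4-fold and 7.53-fold higher in Ex2. The expansins differed less, EXPA3 by 1.84 and EXP1 by 1.55, or 3.59-fold and 2.93-fold. Cel1, with 76.2 on Ex1, entered the comparison through its Ex2 value alone, while the other genes reached 175 on both arrays.

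Differences over all compared probe sets had a main body around and below 0 and a second, smaller rise on the high side. In steps of 0.1, the fullest step at or above 1 was that from 2.2 to 2.3 with 79 probe sets, and the emptiest between 0 and there was 1.1 to 1.2 with 30. The endoglucanases lay above that fullest step: 5 of the 5568 probe sets had a larger difference than Cel1, and 60 a larger one than Cel3. The expansins lay between the low point and the fullest step, with 651 probe sets above EXPA3 and 771 above EXP1. The step of EXP1 held 35 probe sets and that of EXPA3, on the flank of the rise, 50. Among the 495 named genes compared, 2 were above Cel1, 13 above Cel3, 71 above EXPA3 and 86 above EXP1.

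**Figure D2:**
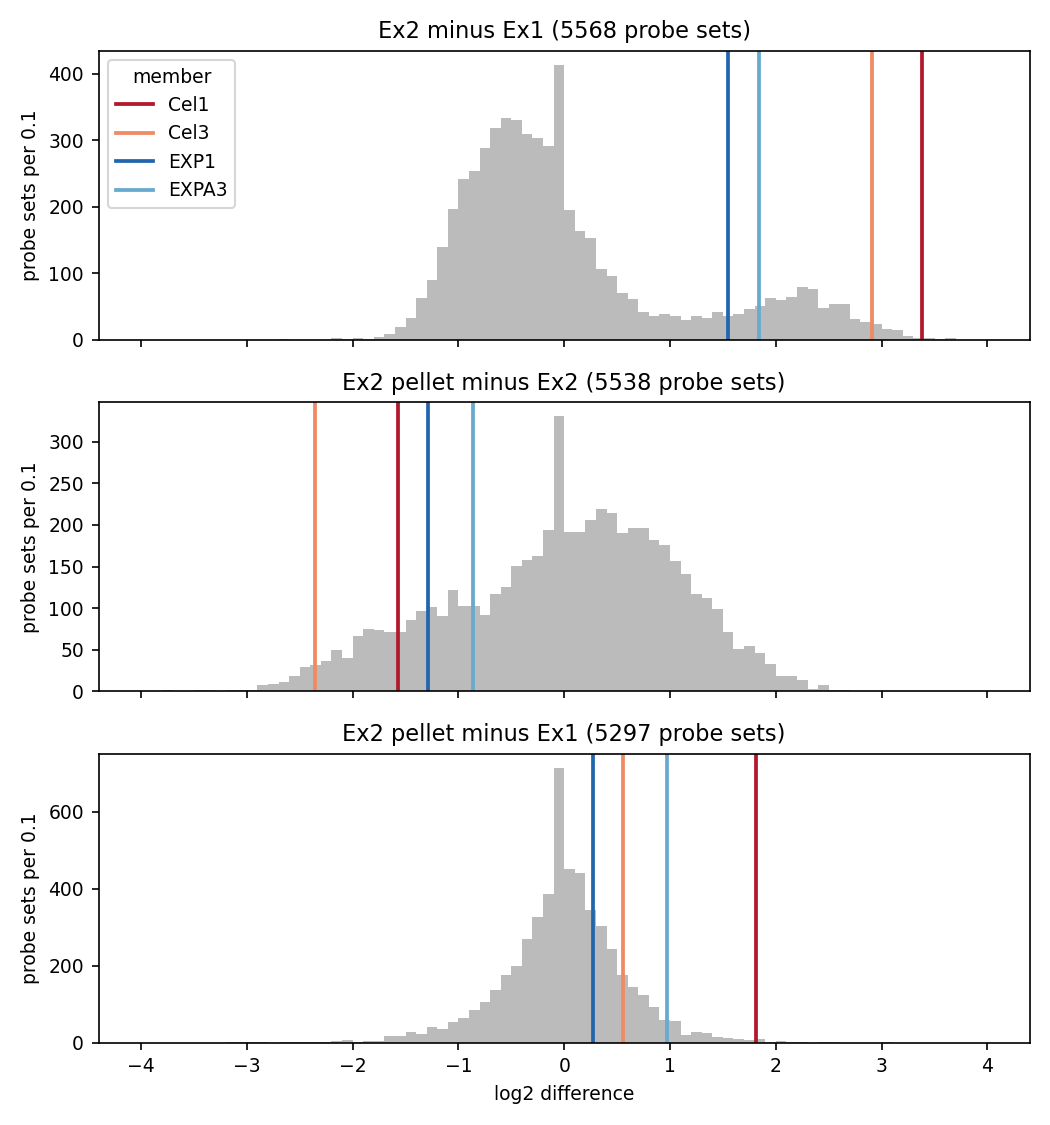
Histograms of log2 differences over all probe sets that pass the brightness filter, in steps of 0.1, with the 4 genes as coloured lines. In Ex2 minus Ex1, Cel1 (3.38) and Cel3 (2.91) lie beyond the fullest step of the second rise (2.2 to 2.3). EXP1 (1.55) and EXPA3 (1.84) lie before that step. In Ex2 pellet minus Ex2 all lie left of 0, and in Ex2 pellet minus Ex1 Cel1 (1.82) stands far to the right.

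A difference between genes within 1 comparison is hardly moved by a constant scaling of the arrays either. Between Ex2 and Ex1, Cel1 exceeded EXP1 by 1.83 and EXPA3 by 1.54 on the log2 scale, and Cel3 exceeded them by 1.36 and 1.07. Within the kinds the gaps were smaller: Cel1 lay 0.47 above Cel3, and EXP1 lay 0.29 below EXPA3 (-0.29). As a scale for such gaps, 26 named genes with several bright probe sets had a median spread of 0.22 between those probe sets in this comparison, and 90% of them one of up to 0.59. That spread is measured within arrays and says nothing of replicate preparations, and each of the 4 genes had 1 probe set.

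The second comparison, Ex2 pellet minus Ex2, set the debris preparation against the supernatant preparation. All 4 genes were lower in the pellet, Cel1, Cel3 and EXP1 at least 2-fold, as were 19.8% of the 5538 probe sets compared. Cel3 differed most, by -2.35 on the log2 scale or 5.11-fold lower, and 101 of the 5538 probe sets lay below it. Cel1 was at -1.57 and EXP1 at -1.28, 2.97-fold and 2.44-fold lower in the pellet. EXPA3, at -0.87 or 1.82-fold lower, did not reach 2-fold. These calls moved with the scaling of the arrays: scaled on control spikes added at hybridisation, EXP1 lost 2-fold (-0.74), and scaled on ribosomal protein genes, EXPA3 reached it (-1.90). The endoglucanases therefore did not stay side by side here: Cel1 was lower in the pellet by 0.78 less than Cel3 was, and it lay within 0.29 of EXP1. This comparison shares the Ex2 array with the first, so the values of one are no second measurement of the other.

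The third comparison, Ex2 pellet minus Ex1, set the debris against the direct phenol extract. Cel1 was 3.52-fold higher in the pellet, a log2 difference of 1.82, and was the 1 gene of the 4 to reach 2-fold. Of the 5297 probe sets compared, 3.78% reached 2-fold in that direction, and 22 differed by more than Cel1, which was compared through its pellet value alone. EXPA3 was just short of the threshold at 0.98, or 1.97-fold, and reached 1.05 when the arrays were centred on their medians. Cel3 was at 0.56 and EXP1 at 0.27, or 1.47-fold and 1.20-fold. The last of these is near the 0.18 by which probe sets of the same gene typically differed in this comparison. Cel1 exceeded Cel3 by 1.26 and EXP1 by 1.55 here, and EXPA3 exceeded EXP1 by 0.71 (EXP1 minus EXPA3, -0.71).

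The pellet can be placed on the log2 distance between Ex1 (0%) and Ex2 (100%) for each gene. Cel1 stood at 53.6% and EXPA3 at 53.0% of that distance, and Cel3 at 19.2% and EXP1 at 17.3%. The genes thus paired across the protein kinds by this measure, 1 endoglucanase with 1 expansin in each pair. As a constant shift of an array moves these percentages, they hold for the deposited scale.

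Differences as read here depend on how the arrays are put on a common scale. The hybridisation spikes bioB, bioC and bioD, added as a control at hybridisation, were brighter on Ex2 than on Ex1 by a median of 1.19 on the log2 scale over 21 probe sets. In the other comparisons they differed by -0.55 (pellet minus Ex2) and 0.65 (pellet minus Ex1). The 6 ribosomal protein probe sets had median differences of -0.81 (Ex2 minus Ex1), 1.04 (pellet minus Ex2) and 0.23 (pellet minus Ex1). Scaled on the spikes, Ex2 minus Ex1 was 2.20 for Cel1, 1.72 for Cel3, 0.65 for EXPA3 and 0.36 for EXP1, so that the expansins no longer reached 2-fold. Scaled on the ribosomal proteins, these were 4.19, 3.72, 2.65 and 2.36 in the same order of genes. Each gene thus stayed higher in Ex2 than in Ex1 and lower in the pellet than in Ex2 on the spikes and on the ribosomal proteins. The directions also held with a pseudocount of 16, median centring and quantile normalization, but these were weak checks. A pseudocount cannot turn a direction, and the deposited arrays were already close in their medians. In pellet minus Ex1, Cel3 (-0.09) and EXP1 (-0.38) turned direction when scaled on the spikes, and Cel1 stayed past 2-fold at 1.18. The split of all probe sets moved with the scaling as well: in Ex2 minus Ex1 it was 964 higher to 560 lower as deposited, 438 to 3988 on the spikes and 1583 to 7 on the ribosomal proteins. For pellet minus Ex2 it was 943 to 1095, 1990 to 568 and 53 to 2701, and for pellet minus Ex1 200 to 253, 36 to 1120 and 110 to 430.

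**Figure D3:**
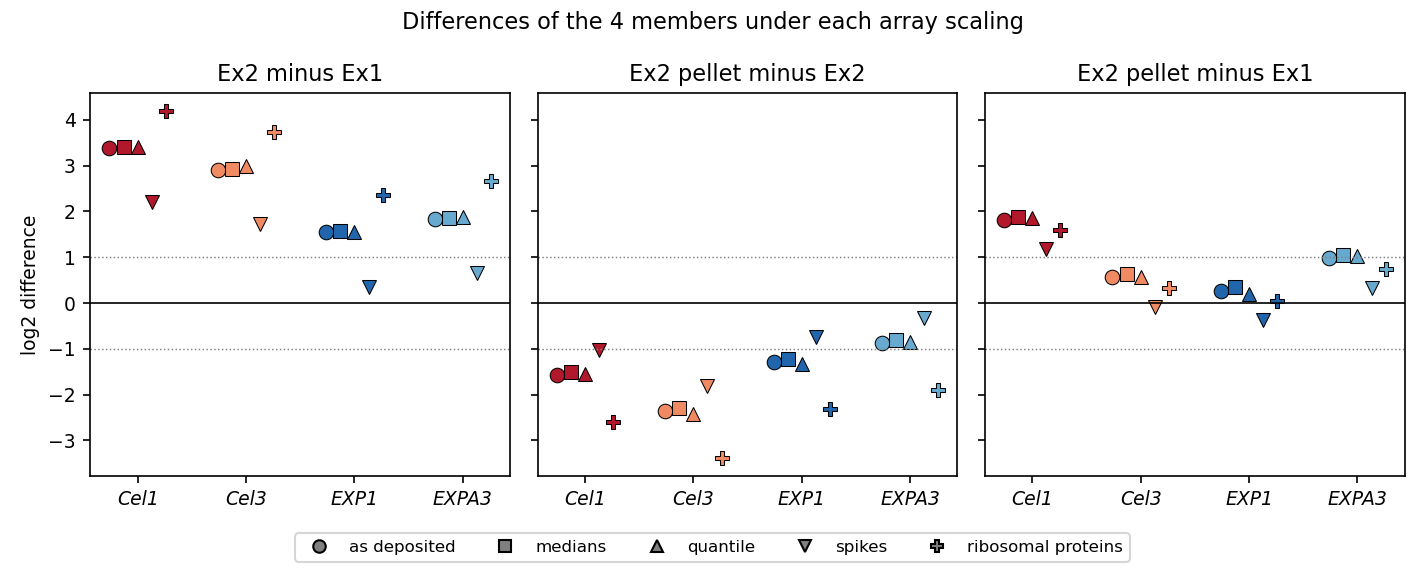
Log2 differences (y axis) of Cel1, Cel3, EXP1 and EXPA3 in the 3 comparisons, with values as deposited, centred on medians, quantile normalized, scaled on spikes and scaled on ribosomal proteins. Dotted lines mark 2-fold. The signs hold in the first and second panels, and in the third Cel3 and EXP1 fall below 0 on the spikes (-0.09 and -0.38).

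Signals of the preparation itself also differed between the arrays. The probe set for 25S ribosomal RNA gave 568 on the pellet array, 367 on Ex2 and 1809 on Ex1. For actin, the ratio of 3' to 5' probe set intensity was 1.35, 1.71 and 1.20 on the same arrays, and for gapdh it was 1.34, 1.45 and 1.34. Of the marker genes, 8 of 10 for ripe pericarp had a probe set, and all 8 reached 175. Their summed intensity was 54992 on the pellet array, 63149 on Ex2 and 57746 on Ex1, EXP1 itself among them. The members did not move together: PG2, ACS4 and EXP1 (6811 against 2321) were higher on Ex2 than on Ex1. E8, ACS2, Psy1, RIN and NOR (1367 against 2613) were lower. For epidermis and cuticle 3 of 6 were found, the lipid transfer genes ltpg1, TSW12 and LE16, with sums of 6672, 7698 and 2365. Most of each sum came from ltpg1 (4599, 5770 and 1670), while LE16 was higher on the pellet array (1014) than on Ex2 (688). Green tissue had 4 of 9 (sums 16107, 10195 and 14498), vascular tissue 2 of 5 (268, 534 and 241) and seed and locular gel 2 of 5 (90.9, 257 and 42.6). The vascular sums differed mostly through SUT2 (111, 345 and 101), with SUS2 at 158, 188 and 140. Those for seed and locular gel came mostly from sbt3 (79.1, 243 and 31.8), and MAN2 was dim (11.8, 14.0 and 10.8). No marker was at 0, but MAN2 lay low on each array, at percentiles 5.89, 9.41 and 4.38 of the non-control probe sets. A value above 0 is therefore no sign that a marker was detected. The part of the markers in the results was not tested.

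The rest of the endoglucanase and expansin families was read from a list by symbol, which had 4 other endoglucanase and 10 other expansin genes on the array. The brighter genes of both families had the same order of arrays as the 4 described so far. Cel2, a ripening and abscission endoglucanase, read 1372 on the pellet array, 5291 on Ex2 and 1267 on Ex1. CEL8 read 103 on the pellet array, 472 on Ex2 and 94.2 on Ex1. EXP5, an expansin, read 181 on the pellet array, 420.0 on Ex2 and 103 on Ex1. These were 4.17-fold, 4.97-fold and 4.07-fold higher in Ex2 than in Ex1, CEL8 and EXP5 being compared through their Ex2 value alone. With them, the 4 endoglucanases compared ran from 2.06 (Cel2) to 3.38 (Cel1) and the 3 expansins from 1.55 (EXP1) to 2.02 (EXP5), so these bright genes did not overlap, though the margin between Cel2 and EXP5 was smaller than the 0.22 between probe sets of the same gene. With no filter the families overlapped, from -0.12 to 3.38 over 6 endoglucanases and from 0 to 2.02 over 12 expansins.

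In pellet minus Ex2 the bright genes did not overlap either, CEL8 being compared through its Ex2 value alone. The 4 endoglucanases ran from -2.35 (Cel3) to -1.57 (Cel1) and the 3 expansins from -1.28 (EXP1) to -0.87 (EXPA3). The margin of 0.29 between Cel1 and EXP1 was smaller than the 0.38 by which probe sets of the same gene typically differed in this comparison. With no filter the families overlapped here too, reaching 0.19 among endoglucanases and 0 among expansins. In pellet minus Ex1 the bright genes overlapped, with Cel2 at 0.12 and Cel1 at 1.82, and EXP1 at 0.27 and EXPA3 at 0.98. Cel2 and CEL8 had nearly the same value on the pellet array as on Ex1, at 5.59% and 5.62% of the distance to Ex2. EXP5 was at 40.3%. Cel1 was thus the endoglucanase whose pellet value lay farthest from Ex1.

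The remaining genes of both families were dim on all 3 arrays. The auxin-related cel7 read 15.9 on the pellet array, 13.8 on Ex2 and 15.1 on Ex1, and cel5 read 20.0, 29.2 and 20.0. Among the expansins, EXPA4, known from growing green fruit, read 35.7 on the pellet array, 61.8 on Ex2 and 28.8 on Ex1, a 2.11-fold difference between Ex2 and Ex1 below the brightness filter. EXPA6 had 2 probe sets that did not match, at 1.66-fold and 1.08-fold for Ex2 over Ex1. EXPA10, known from germinating seed, stood at 90.4, 90.8 and 82.6, the least dim of the rest. The other dim expansins differed by 0.20 or less on the log2 scale between Ex2 and Ex1. EXP2 (15.9) and exp9 (31.2) had the same deposited value on all 3 arrays, as had 946 of the 10038 probe sets. A further gene with the symbol CELLULASE, looked up after the values were seen, was also at 1 value, 21.2, on each array.

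**Figure D4:**
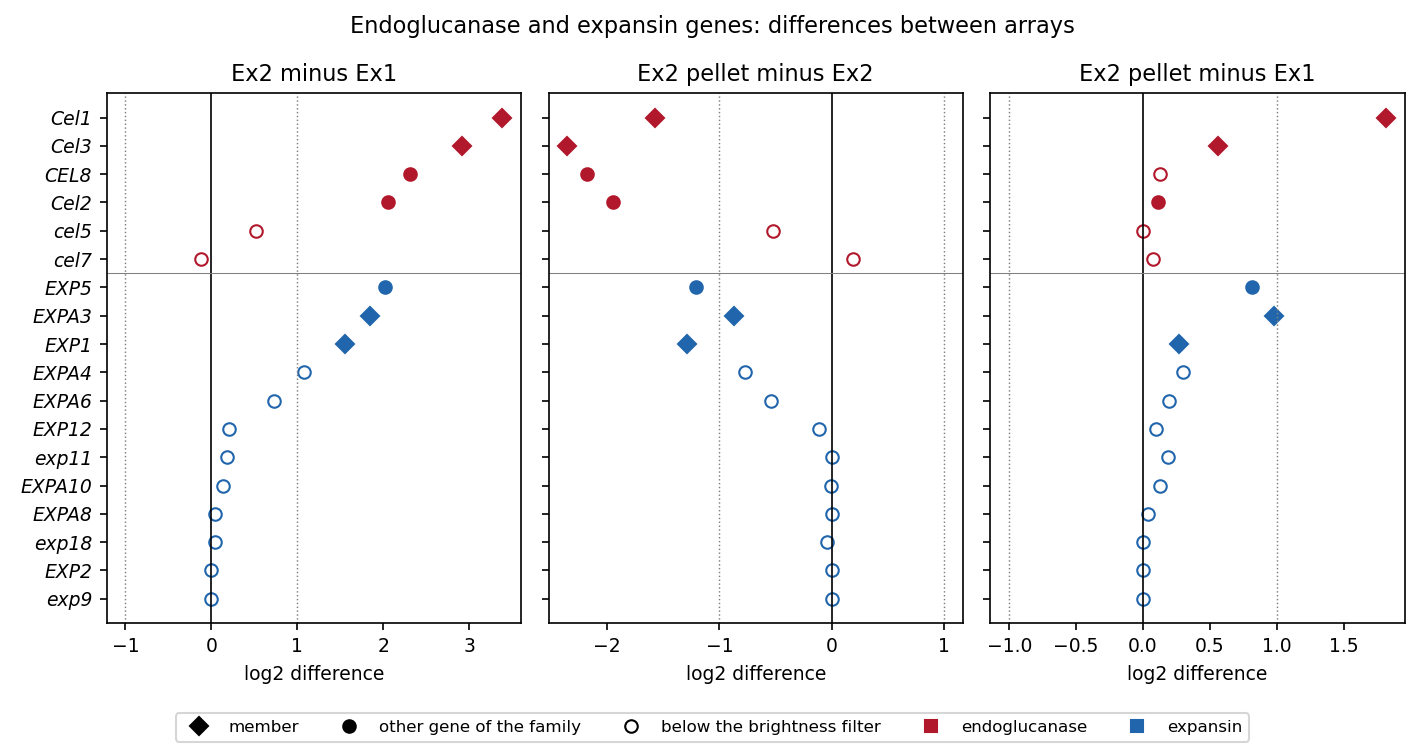
Log2 differences (x axis) in the 3 comparisons for 6 endoglucanase genes (red) and 12 expansin genes (blue), 1 point per gene. Diamonds are Cel1, Cel3, EXP1 and EXPA3, open circles are genes below the brightness filter of that comparison, and dotted lines mark 2-fold. Filled red points lie beyond filled blue ones in the first panel (2.06 and more, against 2.02 and less) and in the second, but not in the third. Both margins are smaller than the typical gap between probe sets of the same gene (0.22 and 0.38). In the first panel Cel1, CEL8 and EXP5 are filled through their Ex2 value alone. With the open points counted, the families overlap.

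Around these families, the cell wall list held 49 further genes, of which 23 were bright enough to compare Ex2 with Ex1, 10 of them through a single array. All 23 were higher in Ex2, 19 at least 2-fold, with a median of 2.26, while 20.2% of the 495 named genes reached 2-fold upward and their median was -0.03. With no brightness filter, 25 of the 49 were at least 2-fold higher, 41 were above 0, 2 below and 6 equal, and the median was 1.08. Of the 803 named genes under that setting 130, or 16.2%, were at least 2-fold higher and 349 were above 0, with a median of 0. Genes of enzymes that act on xyloglucan were among the listed wall genes. The xyloglucan endotransglucosylase genes encode enzymes that cut and rejoin xyloglucan. Among them, LOC543916 (also XTH9) was at 4.86-fold, XTH3 at 2.38-fold, tXET-B2 at 2.12-fold and XTH5 at 1.96-fold. LOC543916, XTH3 and tXET-B2 were compared through their Ex2 value alone, while XTH5, bright on both arrays, did not reach 2-fold. With no filter, 6 of all 11 reached 2-fold, where 16.2% of named genes did. Among the other wall genes, Man4, a ripening mannanase, was 2.99-fold higher, and the xylosidase gene LOC543515 (also LEXYL2) 4.78-fold. By contrast, XYL1 differed by 0.18 on the log2 scale. Xegip, whose product inhibits a fungal xyloglucan-specific endoglucanase, read 44.0 on the pellet array, 106 on Ex2 and 18.2 on Ex1, below the filter.

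In pellet minus Ex2, 23 of the 49 were bright enough, 6 of them through their Ex2 value alone. All 23 were below 0, their median was -1.87, and 17 reached 2-fold downward. Of 499 named genes 21.4% did, and their median was -0.07. Without the brightness filter, 21 of the 49 reached 2-fold downward, 38 were below 0, 1 above and 10 equal. Their median was then -0.78. Of the 803 named genes under that setting 133 reached 2-fold downward, and the median was 0. In pellet minus Ex1, 17 were compared, 4 of them through a single array. Of these 15 were above 0, 2 below and 1 past 2-fold upward, with a median of 0.57. In 471 named genes the share past 2-fold upward was 5.10% and the median 0. Cel1 and EXPA3, at 1.82 and 0.98, were above that list median in the pellet, Cel3 was near it at 0.56, and EXP1 was below it at 0.27. The median of the whole list of 53 genes, 0.57 over the 21 compared, turned to -0.07 when scaled on the spikes.

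Genes with the most similar profile were found by the Euclidean distance between log2 values over the 3 arrays, each gene centred on its mean, among 501 other named genes that reached 175 on any array. Cel1 was nearest to LOC543878 (also PR5), a pathogenesis-related gene, at a distance of 0.17, then to the pectin methylesterase gene PMEU1, the subtilase gene sbt3, the glucanase gene GluB and the acid phosphatase gene APS1 at 0.51. For Cel3 the nearest was LHA1, a plasma membrane proton pump gene, at 0.04, followed by LOC543517 (also LeARF1), GLUII, the beta-galactosidase gene TBG3 and the phosphate transporter gene PT1 at 0.15. EXP1 lay nearest to HMGR at 0.12, a gene of isoprenoid synthesis, then AAP1, RSI-1, the vacuolar processing enzyme gene VPE5 and Man4 at 0.24. EXPA3 had ER-SHSP as nearest at 0.07, followed by CIF1, BI-1, LOC543969 and EXP5 at 0.24. None of the 4 genes was among the 5 nearest of another: their own distances ran from 0.50 (EXP1 to EXPA3) to 1.39 (Cel1 to EXP1). With 3 arrays a profile has few degrees of freedom, and these distances are a description.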

How the data were processed

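Tomato pericarp RNA from 3 preparations was measured on 3 arrays, 1 per preparation. The authors deposited 1 table of linear intensity values (judged from their range) for 10209 probe sets, 171 of them controls. GCOS 5.0 and RMA are named per the submitters' processing notes, without order or parameters. Medians of 170.0 (Ex2 pellet), 177 (Ex2) and 179 (Ex1) were close to each other in the deposited table.

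Symbols came from the platform annotation (909 probe sets with 1 name, 0 with several, 9129 with none) and were updated by gene ID with the RefSeq table of assembly SLM_r2.1, which held 885. Coordinates and sequences were not used here. A gene with several probe sets was read by the one with the highest mean. Differences are of log2(intensity + 1), which understates those of dim genes. The thresholds were an intensity of 175 on the brighter array and 2-fold. No p-value was computed. Alternatives changed the pseudocount, array scaling, filter, threshold and choice of probe sets. The genes and lists were chosen with earlier results of these data known. Named were the 4 genes, the listed wall genes and, for each of the 4, its 5 nearest genes. The code was tested on simulated data. Python 3.11.15, pandas 2.3.3, NumPy 2.4.6 and matplotlib 3.10.9 were used.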

Additional observations from a re-analysis of the deposited data

How the results depend on the processing

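No paired analysis was possible because each preparation had 1 array. A value is described as moved here if it changed by at least the median gap between probe sets of a gene (0.22, 0.38 and 0.18 on the log2 scale in the 3 comparisons), and a count if it changed by over 1.5 times. Of the results under the alternatives, 157 stayed within these bounds, 68 moved and 3 turned direction. A pseudocount of 16 moved Cel1 in Ex2 minus Ex1 to 3.16. Centring on medians moved 1 listed result, the wall genes at least 2-fold higher in pellet minus Ex1, to 4, and quantile normalization none. Scaling on the spikes gave Ex2 minus Ex1 values of 2.20 (Cel1), 1.72 (Cel3), 0.36 (EXP1) and 0.65 (EXPA3). In pellet minus Ex2 it gave -1.02, -1.80, -0.74 and -0.32, and in pellet minus Ex1 1.18, -0.086, -0.38 and 0.33. Scaling on ribosomal proteins gave 4.19, 3.72, 2.36 and 2.65, then -2.61, -3.39, -2.32 and -1.90, then 1.59, 0.33, 0.041 and 0.75 for the same genes and comparisons. Both shift a whole array by a constant. The median of the 53-gene wall list in Ex2 minus Ex1 was 2.26, and 1.06 on the spikes, 3.07 on ribosomal proteins, 1.20 with no filter and 2.68 with the filter at the upper quartile. In pellet minus Ex2 it was -1.57, and -1.02, -2.61 and -0.87 under the first 3 of these. In pellet minus Ex1 it was 0.57, and -0.073, 0.35 and 0.19. The count of wall genes at least 2-fold higher in Ex2 than in Ex1 was 23, and 14 on the spikes, where 1 was lower. In pellet minus Ex1 it was 2, and 1 on the spikes, 5 with no filter, 0 with the upper quartile, 1 at 3-fold and 10 at 1.5-fold. In pellet minus Ex2, 20 were lower, and 13 at 3-fold. Over all probe sets, Ex2 minus Ex1 split 964 higher to 560 lower, and 438 to 3988 on the spikes, 1583 to 7 on ribosomal proteins and 606 to 297 with the upper quartile. The lower count was 21 at 3-fold and 1725 at 1.5-fold. Pellet minus Ex2 split 943 to 1095, and 1990 to 568, 53 to 2701 and 592 to 635 under the same alternatives, 255 to 538 at 3-fold and 1712 higher at 1.5-fold. Pellet minus Ex1 split 200 to 253, and 36 to 1120, 110 to 430 and 96 to 97, 43 to 58 at 3-fold and 647 to 669 at 1.5-fold. Thresholds and filters change these counts by construction. For the other alternatives the cause was not tested. A filter on the mean of the 3 arrays, chosen after seeing the data, moved none of these results. Signals near the low end of the array limit what can be read. Equal deposited values do so too: 946 probe sets had 1 value on all arrays, and how bright these were was not examined.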

Other observations

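Most probe sets of the array carry no gene name here, and some had profiles as close to the 4 genes as any named gene. Of 5136 unnamed probe sets that reached the intensity of 175 on any array, 25 were nearer to EXP1 than its nearest named gene, HMGR, the closest at a distance of 0.0068. For EXPA3 there were 7, for Cel3 1 and for Cel1 1. Within the distance of the fifth named gene there were 85 unnamed probe sets for EXP1, 67 for EXPA3, 30 for Cel1 and 23 for Cel3. These counts are out of 5136, beside 5 of 501 named genes for each of the 4.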
